A study of Mus musculus with 8 samples.

Results

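Some surface proteins take part in stimulating or restraining macrophages and other leukocytes, and are also used as marks of activation. This account concerns 9 genes for such proteins: Icosl, Cd40, Cd69, Cd80, Cd83, Cd86, Cd200, Tnfsf4 and Slamf8. They are 9 of the 6287 genes in the deposited table. They were chosen by name, with earlier fold changes and calls from the same comparison of genotypes already known, so their differences between genotypes are given as a description and not as independent evidence. RNA-seq was done on primary macrophages grown from bone marrow, with 4 libraries from PAD4-/- mice and 4 from WT mice as the control. PAD4 turns arginine residues of proteins into citrulline, and the title of the study concerns macrophage migration in diabetic kidney disease. The study text calls the 4 samples of a group independent. The titles of all samples carry the word con, whose meaning is not stated; the labels name no treatment, age or sex, and do not say how the PAD4-/- allele was made or which animals gave which library. The transcript of the deleted gene was not analysed here and gives no check of the labels.

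T cells need a second signal beside the antigen they recognise. CD80 and CD86 give it by binding CD28, and the inhibitory receptor CTLA-4 competes for the same ligands; ICOSL, a relative of both in the B7 family, binds ICOS. OX40 ligand, encoded by Tnfsf4, belongs to the TNF superfamily and engages OX40 on activated T cells, while CD40, a receptor of the matching TNF receptor superfamily, takes a signal from T cells into the macrophage. CD83 is a maturation marker of dendritic cells that protects CD86 and MHC class II from ubiquitin-driven loss. CD69 is a lectin-like early activation marker that pulls the sphingosine 1-phosphate receptor S1PR1 off the surface and so holds cells in tissue. On the restraining side, CD200 binds the inhibitory receptor CD200R on myeloid cells, and SLAMF8, of the SLAM family, has been found in mice to limit oxidase activity and migration of macrophages.

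In PAD4-/- macrophages, Icosl, Cd69, Tnfsf4 and Cd83 were higher in all 4 libraries than in any WT library, and Cd200 and Slamf8 were lower in all 4. The ratio of mean levels was 2.64 for Icosl, 2.69 for Cd69, 2.11 for Tnfsf4 and 1.79 for Cd83, against 0.417 for Cd200 and 0.454 for Slamf8. Cd86 had a ratio of 1.38 with overlapping groups, and Cd40 and Cd80 had ratios of 1.40 and 1.19 and did not pass the test. The 4 PAD4-/- libraries fell into pairs. A principal component analysis of all genes tested put 70.6% of the variance on its first axis, where replicates 3 and 4 lay at 17.7 and 16.1, replicates 1 and 2 at -0.905 and 1.42, and the WT libraries between -9.02 and -8.15. The members' fold changes and the counts of each gene list are therefore also given without replicates 3 and 4. In bulk RNA, fewer cells of a type and less RNA per cell cannot be told apart.

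**Figure D1:**
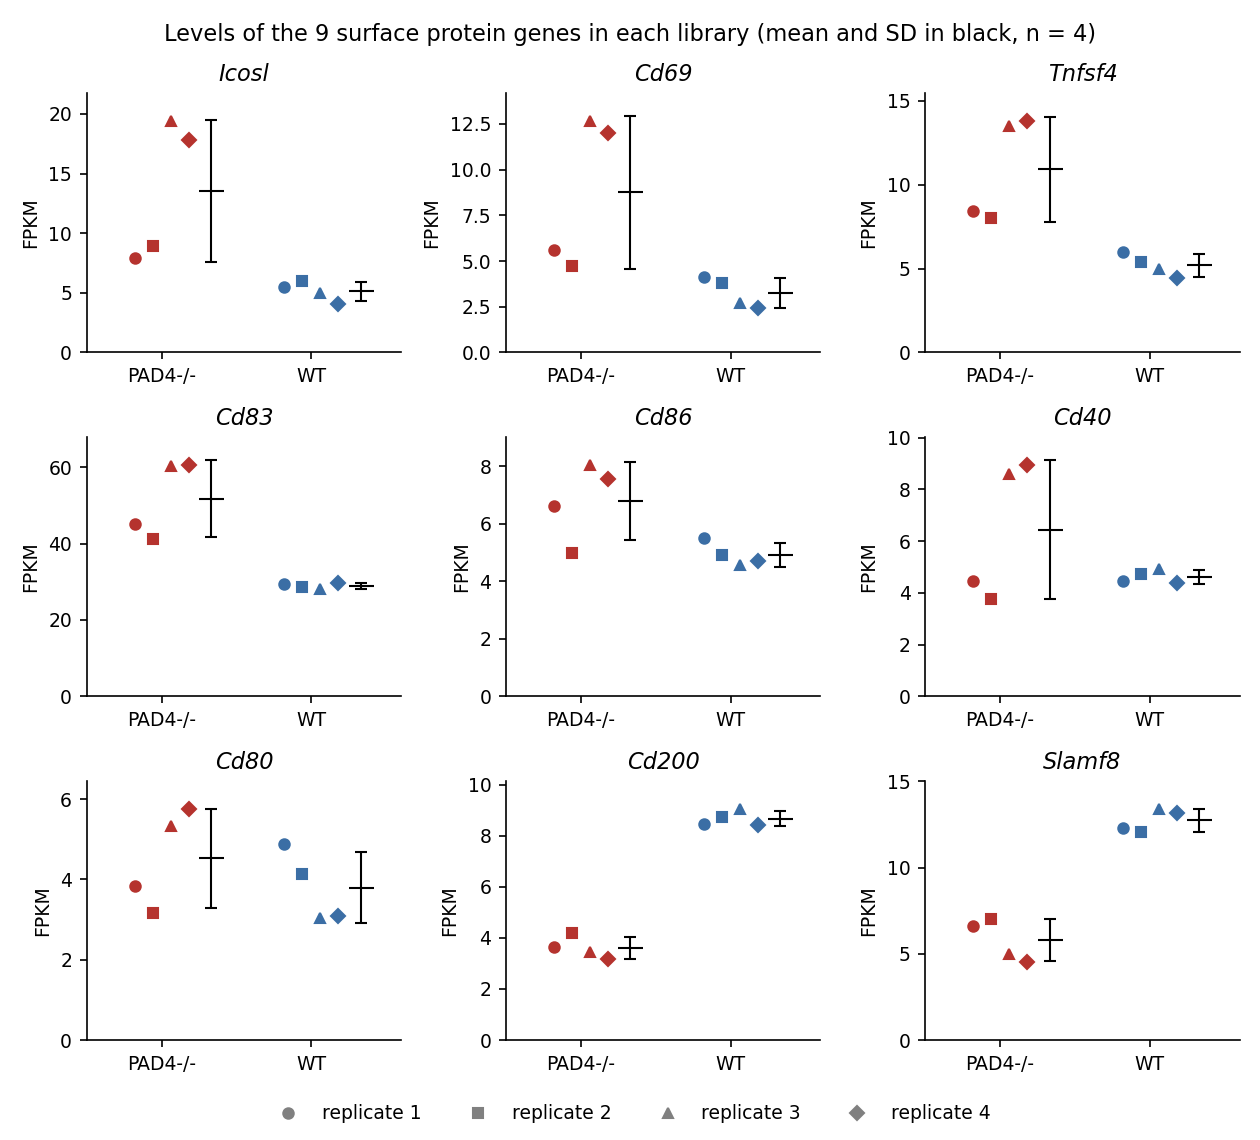
Level of each of the 9 genes in FPKM (fragments scaled to transcript length and sequencing depth; vertical axis, from 0) in the 4 PAD4-/- libraries (red, left) and the 4 WT libraries (blue, right). Marker shapes give the replicate number, and black bars the mean and SD (n = 4). Icosl, Cd69, Tnfsf4 and Cd83 do not overlap between groups, nor do Cd200 and Slamf8, and PAD4-/- replicates 3 and 4 (triangle and diamond) are the highest 2 libraries for all 7 genes outside the lower pair.

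Icosl (chromosome 10, 78069368 to 78079525) stood at 7.95, 8.92, 19.38 and 17.84 FPKM in PAD4-/- replicates 1 to 4, against 5.45, 5.97, 4.99 and 4.06 FPKM in WT replicates 1 to 4. The PAD4-/- libraries form a lower and a higher pair, and the lower pair still lies above every WT library. The means were 13.5 ± 5.92 FPKM in PAD4-/- and 5.12 ± 0.811 FPKM in WT (SD, n = 4 each), a log2 fold change of 1.16 (SE 0.285) computed on log2(FPKM + 1), where changes of low genes come out too small. Without PAD4-/- replicates 3 and 4 the log2 fold change was 0.63.

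Cd69 (chromosome 6, 129267324 to 129275375) had 5.60, 4.72, 12.64 and 12.02 FPKM in the PAD4-/- libraries and 4.12, 3.80, 2.68 and 2.43 FPKM in the WT libraries. It shows the same 2 pairs among the PAD4-/- libraries as Icosl, and its WT libraries also spread, with replicates 1 and 2 above replicates 3 and 4. Means of 8.75 ± 4.16 FPKM in PAD4-/- and 3.26 ± 0.828 FPKM in WT (SD, n = 4 each) gave a log2 fold change of 1.11 (SE 0.314), or 0.55 without PAD4-/- replicates 3 and 4.

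Tnfsf4 (chromosome 1, 161395438 to 161418206) had 8.42, 7.99, 13.46 and 13.77 FPKM in the PAD4-/- libraries and 5.99, 5.37, 4.95 and 4.42 FPKM in the WT libraries. Each PAD4-/- library exceeded the highest WT library. The means were 10.9 ± 3.13 and 5.18 ± 0.664 FPKM in PAD4-/- and WT (SD, n = 4 each), with a log2 fold change of 0.91 (SE 0.176), or 0.58 without PAD4-/- replicates 3 and 4. Its own receptor gene, Tnfrsf4, was not analysed here.

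Cd83 (chromosome 13, 43785112 to 43803133) was by far the most abundant of the 9 per transcript length, with 45.1, 41.3, 60.4 and 60.6 FPKM in the PAD4-/- libraries and 29.5, 28.7, 28.1 and 29.8 FPKM in the WT libraries. The WT libraries lay within a narrow band, and every PAD4-/- library was well above it. The means were 51.8 ± 10.1 FPKM in PAD4-/- and 29.0 ± 0.776 FPKM in WT (SD, n = 4 each), a log2 fold change of 0.80 (SE 0.118), or 0.56 without PAD4-/- replicates 3 and 4.

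The CD28 ligands and Cd40 gave less clear differences. Cd86 (chromosome 16, 36568956 to 36666158) had 6.63, 4.97, 8.04 and 7.56 FPKM in the PAD4-/- libraries and 5.51, 4.92, 4.55 and 4.69 FPKM in the WT libraries. PAD4-/- replicate 2 lay inside the WT range and the other 3 lay above it, with a log2 fold change of 0.38 (SE 0.119), or 0.19 without PAD4-/- replicates 3 and 4. Cd80 (chromosome 16, 38457430 to 38495958), the other CD28 ligand gene, had 3.85, 3.16, 5.34 and 5.76 FPKM in the PAD4-/- libraries and 4.89, 4.13, 3.05 and 3.10 FPKM in the WT libraries. PAD4-/- replicates 1 and 2 lay inside the WT range, and the WT libraries themselves fell into a higher and a lower pair. Its log2 fold change was 0.20 (SE 0.177), and -0.075 without PAD4-/- replicates 3 and 4. Cd40 (chromosome 2, 165055614 to 165071654) had 4.47, 3.78, 8.60 and 8.94 FPKM in the PAD4-/- libraries and 4.44, 4.71, 4.93 and 4.37 FPKM in the WT libraries. PAD4-/- replicates 3 and 4 stood far above all other libraries, while replicate 2 was the lowest of all 8. The log2 fold change of Cd40 was 0.33 (SE 0.236), and -0.13 without those 2 libraries.

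Both genes on the restraining side were lower. Cd200 (chromosome 16, 45382111 to 45409060) had 3.64, 4.20, 3.44 and 3.18 FPKM in the PAD4-/- libraries and 8.45, 8.73, 9.05 and 8.41 FPKM in the WT libraries. The groups are far apart, and the gap between them exceeds the range within either. The means were 3.62 ± 0.433 FPKM in PAD4-/- and 8.66 ± 0.296 FPKM in WT (SD, n = 4 each), a log2 fold change of -1.07 (SE 0.070), or -0.98 without PAD4-/- replicates 3 and 4. Slamf8 (chromosome 1, 172581377 to 172590873) had 6.59, 7.04, 4.97 and 4.54 FPKM in the PAD4-/- libraries and 12.27, 12.08, 13.40 and 13.18 FPKM in the WT libraries. Again PAD4-/- replicates 3 and 4 were farthest from WT, and replicates 1 and 2 were still well below it. The means were 5.79 ± 1.22 and 12.7 ± 0.655 FPKM in PAD4-/- and WT (SD, n = 4 each), a log2 fold change of -1.03 (SE 0.113), or -0.81 without PAD4-/- replicates 3 and 4.

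Among 5674 genes with a mean of at least 1 FPKM over the 8 libraries, which include all 9 members, the limma fit called 21.1% higher and 6.61% lower in PAD4-/- at an adjusted p below 0.05. By the same rule 5 of the 9 members were higher and 2 lower, a count that follows from how they were chosen. The adjusted p was 2.36e-05 for Cd200, 0.000692 for Slamf8, 0.00351 for Cd83, 0.00888 for Tnfsf4, 0.0221 for Icosl, 0.0354 for Cd69 and 0.0386 for Cd86, against 0.301 for Cd40 and 0.411 for Cd80. Ranked by log2 fold change from the highest, Icosl was 8th, Cd69 11th, Tnfsf4 23rd and Cd83 37th of the genes tested, and from the lowest Cd200 was 7th and Slamf8 10th. Groups did not overlap, with PAD4-/- all higher, for 24.0% of the genes tested and for 4 members, and with PAD4-/- all lower for 7.12% of the genes tested and for 2 members.

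The calls of Icosl, Cd69 and Cd86 were each lost in some fits with 1 library left out. Cd200, Slamf8, Cd83 and Tnfsf4 kept their call in each of 16 alternatives. The call of Icosl was lost without PAD4-/- replicate 4 (adjusted p = 0.0564) and without WT replicate 1 or 3 (adjusted p = 0.0529 and 0.0550). That of Cd69 was lost without PAD4-/- replicate 3 or 4 (adjusted p = 0.0573 and 0.0859) and without any 1 WT library (0.0596 to 0.0848). That of Cd86 was lost without any 1 WT library (0.0539 to 0.0984), without PAD4-/- replicate 3 or 4 (0.0941 and 0.0948) and without both (0.203). Without PAD4-/- replicates 3 and 4 together, 4 members were higher and 2 lower, where 11.7% of the genes tested were higher and 5.15% lower.

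**Figure D2:**
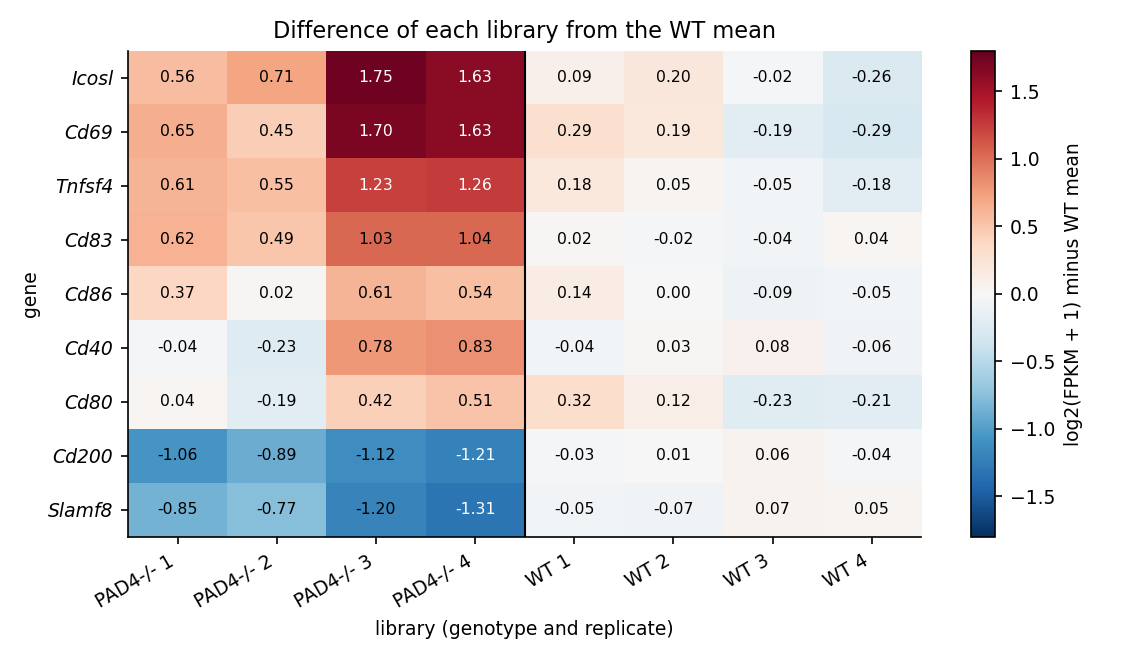
Difference of each library from the WT mean on the log2(FPKM + 1) scale, for the 9 genes (rows) in the 4 PAD4-/- libraries (left of the line) and the 4 WT libraries (right). Red is above and blue below the WT mean. PAD4-/- replicates 3 and 4 show the strongest colour in every row, up to 1.75 for Icosl, whereas in replicates 1 and 2 Cd40 and Cd80 lie between -0.23 and 0.04.

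The fold changes also rest on how libraries are scaled. On the deposited scale the median gene lay 0.082 higher in PAD4-/- on the log2 scale. Scaling by the median of ratios, which centres the genes near 0, called 9.24% of the genes tested higher and 11.1% lower, and of the members 4 higher and 2 lower. Under it the log2 fold change was 1.08 for Icosl, 1.04 for Cd69, 0.84 for Tnfsf4 and 0.71 for Cd83, and -1.14 for Cd200 and -1.11 for Slamf8. Cd86 no longer passed, at 0.31 (adjusted p = 0.0796). In the authors' deposited table, 9.89% of the genes tested here had a q-value below 0.05 and were higher, and 10.6% were lower. The authors' deposited table gives Icosl, Cd69, Tnfsf4 and Cd83 as higher, with log2 fold changes of 1.31, 1.34 (authors' q = 0.0109), 0.99 and 0.75, and Cd200 and Slamf8 as lower at -1.35 and -1.25. Cd86, Cd40 and Cd80 had q-values of 0.0576, 0.338 and 0.682 in the authors' deposited table.

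**Figure D3:**
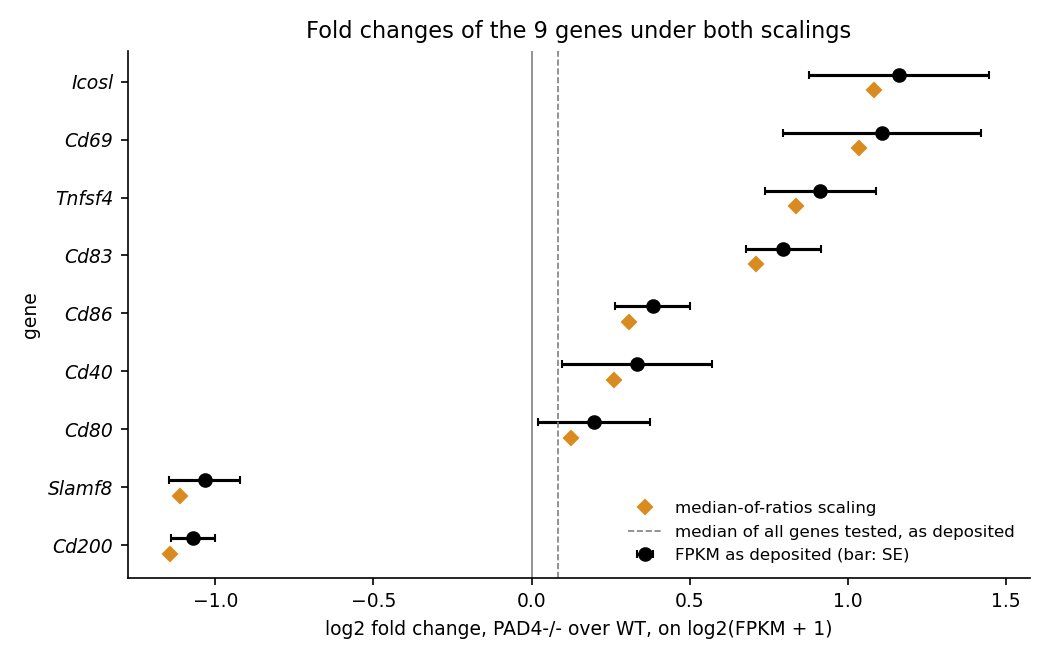
Log2 fold change of PAD4-/- over WT (horizontal axis, on log2(FPKM + 1)) for the 9 genes, as deposited (black, bars are SE, 8 libraries) and with median-of-ratios scaling (orange). The dashed line marks the median of all genes tested, 0.082. Rescaling moves every gene a little to the left, and no gene changes sign.

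The members' levels took another order in PAD4-/- macrophages than in WT. In PAD4-/- libraries Cd83 was followed by Icosl, Tnfsf4, Cd69, Cd86, Cd40, Slamf8, Cd80 and Cd200. The ranges of all neighbours after Cd83 overlapped there. In WT libraries the mean FPKM descended in the order Cd83, Slamf8, Cd200, Tnfsf4, Icosl, Cd86, Cd40, Cd80 and Cd69. There the ranges of Cd83, Slamf8 and Cd200 overlapped with no neighbour, and neighbours from Tnfsf4 to Cd69 overlapped. Slamf8 and Cd200 thus held places 7 and 9 in PAD4-/- and places 2 and 3 in WT, while Icosl held place 2 in PAD4-/- and place 5 in WT. A ratio taken within a library does not depend on library scaling. Icosl over Cd200, a pair picked after the values were seen, was 2.18, 2.12, 5.63 and 5.61 in the PAD4-/- libraries and 0.645, 0.684, 0.551 and 0.483 in the WT libraries. Transcripts per length of the co-stimulatory ligand exceeded those of the restraining one in all PAD4-/- libraries and in no WT library. Cd86 over Cd80 was 1.72, 1.57, 1.51 and 1.31 in PAD4-/- and 1.13, 1.19, 1.49 and 1.51 in WT, so the balance of the 2 CD28 ligands overlapped between genotypes.

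The spread among PAD4-/- libraries differed between members. The SD on the log2 scale in PAD4-/- was 0.615 for Icosl, 0.651 for Cd69 and 0.545 for Cd40, and 0.133 for Cd200 and 0.261 for Slamf8. The median SD of the 9 members was 0.329 in PAD4-/- and 0.101 in WT, beside 0.0987 in PAD4-/- and 0.0658 in WT over all genes tested. This is a description, since the members were chosen with fold changes known and were not matched in level to all genes tested. Genes with the most similar pattern were found as those with the smallest root-mean-square difference over the 8 libraries, each gene taken relative to its WT mean. Nearest to Icosl were Zfp36l1, Cd69 and Cxcl10, at 0.124, 0.136 and 0.153 on the log2 scale, and nearest to Cd69 were Cxcl10, Icosl and Zfp36l1. Zfp36l1 encodes an mRNA decay factor and Cxcl10 an interferon-inducible chemokine. Nearest to Cd40 were Ube2l6, Nmi and Tap2, at 0.0792, 0.0862 and 0.104, with Tap2 encoding a peptide transporter of antigen presentation. Nearest to Cd83 were Bst2, Samsn1 and Fpr2 (0.0694, 0.0742 and 0.0823). Tnfsf4 lay nearest to the chemokine gene Ccl5, to Ggt5 and to Arl5c (0.0974, 0.0999 and 0.101). Cd86 lay nearest to Bcl2a1d, Lrrc8c and Gtdc1 (0.0617, 0.0767 and 0.0839), and Cd80 to H2-T22, Pnp and Gbp6 (0.12, 0.127 and 0.128). On the restraining side, Cd200 lay nearest to Gprc5b, Slamf8 and the cathepsin gene Ctsl (0.0983, 0.104 and 0.124). Slamf8 lay nearest to the cathepsin gene Ctsk, to Gprc5b and to Cd200 (0.0821, 0.0943 and 0.104). These distances were taken on log2(FPKM + 1), where changes of low genes come out too small. Such low genes included Zfp36l1 (means of 2.59 FPKM in PAD4-/- and 0.54 in WT), Gprc5b (0.58 and 2.06), Fpr2 (2.49 and 0.94) and Gbp6 (1.21 and 1.085). Their likeness to the members rests in part on that scale.

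The promoters of Icosl, which was higher, and of Cd200 and Slamf8, which were lower together, are shown so that their letters can be read beside these values. RefSeq windows of 250 bases before to 50 after a start site (GRCm38.p6) were matched for 4 of the 9 members, namely Icosl, Cd80, Cd200 and Slamf8. The start used by the window table is the outer end of the RefSeq gene record for Icosl, and lies inside that record by 7 bases for Cd200, 305 bases for Slamf8 and 1503 bases for Cd80. The whole Slamf8 and Cd80 windows thus lie within the gene records, and positions are counted from the start each window uses. Not matched were Cd40, Cd69, Cd83, Cd86 and Tnfsf4. The windows, 5′ to 3′ on the strand of each gene, are chr10:78069118-78069417 on the plus strand for Icosl, chr16:45409004-45409303 on the minus strand for Cd200 and chr1:172590519-172590818 on the minus strand for Slamf8. Capitals mark matches on either strand to any motif searched.
Icosl: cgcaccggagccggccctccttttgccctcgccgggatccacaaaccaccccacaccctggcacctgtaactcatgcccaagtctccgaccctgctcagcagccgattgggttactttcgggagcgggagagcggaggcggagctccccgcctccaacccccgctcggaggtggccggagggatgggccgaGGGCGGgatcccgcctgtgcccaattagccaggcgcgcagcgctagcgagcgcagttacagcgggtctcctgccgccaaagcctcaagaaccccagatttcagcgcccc
Cd200: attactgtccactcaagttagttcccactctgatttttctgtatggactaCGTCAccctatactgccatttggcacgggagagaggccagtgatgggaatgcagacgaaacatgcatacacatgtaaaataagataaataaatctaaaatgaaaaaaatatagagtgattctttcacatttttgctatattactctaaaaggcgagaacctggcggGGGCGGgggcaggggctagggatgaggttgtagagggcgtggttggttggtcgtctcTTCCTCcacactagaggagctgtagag
Slamf8: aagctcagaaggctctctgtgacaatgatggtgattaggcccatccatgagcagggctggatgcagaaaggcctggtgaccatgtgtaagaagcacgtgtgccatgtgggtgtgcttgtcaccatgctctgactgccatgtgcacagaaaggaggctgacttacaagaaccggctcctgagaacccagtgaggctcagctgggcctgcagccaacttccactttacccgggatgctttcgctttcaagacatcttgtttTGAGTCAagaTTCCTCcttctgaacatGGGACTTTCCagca

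The motifs searched were the κB consensus bound by NF-kB, the GAS element TTCNNNGAA, the AP-1 site TGANTCA, the core GAGGAA bound by the macrophage factor PU.1, the GC box GGGCGG, the short CRE element TGACG and the TATA box TATAAA. In the Slamf8 window a κB match, GGGACTTTCC, lay at bases 37 to 46 after the start its window uses (position 172590568), an AP-1 match at 10 to 16 and a PU.1 core at 20 to 25, and no 2 of these overlapped. Of 32851 RefSeq windows of the same length, 4.51% held a κB match, 7.81% an AP-1 match and 28.3% a PU.1 core. The Cd200 window held a PU.1 core at 24 to 29, a GC box at -34 to -29 and a CRE element at -200 to -196, and the GC box and the CRE element occurred in 35.7% and 20.8% of windows. The Icosl window held a GC box at -59 to -54 and none of the other motifs, and was the richest of the 4 in G and C, at 68.0% with 26 CpG dinucleotides, against a median of 52.7% and 7 over all windows. The Cd80 window, from a gene that did not pass the test, held an AP-1 match at -42 to -36 and a TATA match, found in 13.6% of windows, on the opposite strand. No GAS match was found in the 4 windows, against 8.30% of all windows. These are matches of letters, not binding sites.

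Relatives, partners and regulators of the members were examined in 9 further lists, of which 85 genes were tested. Of these 24 were higher and 8 lower in PAD4-/-, with a median log2 fold change of 0.16, beside 1195 higher and 375 lower and a median of 0.082 over all genes tested. With median-of-ratios scaling 13 were higher and 12 lower, and without PAD4-/- replicates 3 and 4, 14 were higher and 7 lower. The count of higher genes was 11 to 13 without PAD4-/- replicate 3 or 4 or WT replicate 1, 2 or 3, and 42 without PAD4-/- replicate 1. The count of lower genes was 13 without PAD4-/- replicate 1, and 5 without PAD4-/- replicate 4 or WT replicate 2 or 3. The counts of each list below are to be read beside the shares over all genes tested. These were 21.1% higher and 6.61% lower as deposited, and 9.24% and 11.1% with median-of-ratios scaling. Without PAD4-/- replicates 3 and 4 they were 11.7% and 5.15%. Without PAD4-/- replicate 1, 1681 of all genes tested were higher and 544 lower.

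The list of B7 and CD28 proteins also held nectin relatives that bind other lymphocyte receptors. Of its 5 genes tested, 1 was higher and 1 lower, beside 21.1% and 6.61% of all genes tested. In this fit both called genes are of the nectin kind, and the B7 or CD28 relatives Cd274, Vsir and Cd28 did not pass. Other settings, given below, differed. Nectin2, a ligand of the activating receptor CD226 and the inhibitory receptor TIGIT, rose to 5.05 ± 1.01 FPKM in PAD4-/-, against 3.31 ± 0.525 in WT (SD, n = 4 each; adjusted p = 0.0207), and Pvr, another ligand of the same receptors, fell to 29.2 ± 4.96 FPKM, against 36.5 ± 0.717 in WT (SD, n = 4 each; adjusted p = 0.0373). Cd274, which encodes the inhibitory ligand PD-L1, had 58.9, 60.1, 86.5 and 80.1 FPKM in PAD4-/- and 81.0, 79.5, 73.1 and 64.9 FPKM in WT, with overlapping groups (adjusted p = 0.671). For Vsir, which encodes the inhibitory protein VISTA, the ratio was 0.900 (adjusted p = 0.0541), and for Cd28 it was 0.843 (0.108). Vsir passed with median-of-ratios scaling (adjusted p = 0.00865). The authors' q was 0.000249 for Vsir, 0.0293 for Cd28 and 0.507 for Cd274, beside 0.0158 for Nectin2 and 0.00301 for Pvr. Without PAD4-/- replicates 3 and 4, Nectin2 and Pvr no longer passed (adjusted p = 0.0909 and 0.0965). No gene of the list was higher there, and the 2 lower genes were Vsir and Cd274. The call of Nectin2 was also lost without PAD4-/- replicate 3 or 4 or WT replicate 1 or 2 (adjusted p = 0.0503 to 0.0622), and that of Pvr without PAD4-/- replicate 3 or 4 or any 1 WT library (0.0714 to 0.0928).

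Of the TNF superfamily, 1 of 4 ligands tested was higher and 1 lower, and 1 of 11 receptors was higher and 3 lower. Tnf itself rose to 143 ± 14.4 FPKM in PAD4-/-, against 116 ± 4.56 in WT (SD, n = 4 each; adjusted p = 0.0126), and Tnfsf12, which encodes TWEAK, fell to 34.8 ± 3.22, against 41.4 ± 3.99 (SD, n = 4 each; adjusted p = 0.0438). The TWEAK receptor gene Tnfrsf12a also fell, to 31.8 ± 5.78 FPKM in PAD4-/-, against 48.3 ± 2.66 in WT (SD, n = 4 each; adjusted p = 0.00668). Tnfrsf26 and Tnfrsf23, 2 receptor genes that resemble each other, fell to ratios of 0.571 and 0.718 (adjusted p = 0.00165 and 0.0114), and reads shared by such relatives make their levels uncertain. Fas, the death receptor gene, rose to 24.7 ± 6.90 FPKM in PAD4-/-, against 14.2 ± 1.76 in WT (SD, n = 4 each; adjusted p = 0.0220), and had 19.2, 18.2, 30.3 and 30.9 FPKM in the PAD4-/- libraries. The pairs of PAD4-/- replicates 1 and 2 and of replicates 3 and 4 seen in Icosl appear in Fas as well. Without replicates 3 and 4, 1 ligand was higher and none lower, and 1 receptor was higher and 3 lower. Without PAD4-/- replicate 1, 5 receptors were higher, and 2 were without PAD4-/- replicate 2. The call of Fas was lost without WT replicate 1, 3 or 4 (adjusted p = 0.0511 to 0.0597), and that of Tnfsf12 without PAD4-/- replicate 3 or 4 or WT replicate 2, 3 or 4 (0.0677 to 0.109). The 3 lower receptors kept their number without any 1 library.

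Of 10 adaptors of these receptors, 4 rose and 1 fell. Birc2 and Birc3, ubiquitin ligases that act downstream of CD40, stood at 1.68 and 1.26 times the WT mean in PAD4-/- (adjusted p = 0.00533 and 0.0401). The ratio was 1.69 for Traf1 (adjusted p = 0.0192), 1.19 for Traf2 (0.0320) and 0.798 for Traf5 (0.0252). With median-of-ratios scaling 2 were higher and 1 lower, and without PAD4-/- replicates 3 and 4 only 1 was higher and none lower. The number higher was 2 without PAD4-/- replicate 3 or 4 or WT replicate 1, 2 or 4, and 1 without WT replicate 3. The call of Traf5 was lost without PAD4-/- replicate 3 or 4 or WT replicate 1, 2 or 3 (adjusted p = 0.0605 to 0.0759). Traf2 lost its call in 8 of 16 alternatives and Traf1 in 4 of 15, while Birc2 kept it in all 15 that held it. With median-of-ratios scaling Birc3 did not pass (adjusted p = 0.0936).

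NF-kB genes were higher in part. Of 15 tested members of the NF-kB family and its inhibitors, 8 rose and none fell, and all 15 had a positive log2 fold change, with a median of 0.24, where 70.6% of all genes tested were positive. With median-of-ratios scaling 12 of the 15 were positive, against 51.2% of all genes tested, and Nfkbib, Chuk and Tnfaip3 were at -0.012, -0.012 and -0.027. Nfkbia, which encodes the inhibitor IκBα, rose to 182 ± 20.6 FPKM in PAD4-/-, against 145 ± 4.17 in WT (SD, n = 4 each; adjusted p = 0.0120). Nfkb1, Nfkb2 and Nfkbiz had log2 fold changes of 0.27, 0.39 and 0.23 (adjusted p = 0.0131, 0.0233 and 0.0245). The count was 3 with median-of-ratios scaling and 3 without PAD4-/- replicates 3 and 4. It was 2 without PAD4-/- replicate 4 or WT replicate 1, 2 or 3, 3 without PAD4-/- replicate 3, 5 without WT replicate 4 and 11 without PAD4-/- replicate 1. Nfkbia and Nfkb1 kept their call in all 16 alternatives, whereas Nfkb2 lost it in 6 and Nfkbiz in 8.

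Among 4 SLAM family genes tested, none was higher and Slamf7 fell to 97.7 ± 6.26 FPKM in PAD4-/-, against 118 ± 7.99 in WT (SD, n = 4 each; adjusted p = 0.0143). Cd48, Ly9 and Slamf9, of the same family, had ratios of 1.23, 1.10 and 1.14 (adjusted p = 0.0763, 0.139 and 0.186). All 4 had a higher mean FPKM than Slamf8 in both groups. Without PAD4-/- replicates 3 and 4, Slamf7 no longer passed (adjusted p = 0.0535) and Slamf9 did, with a log2 fold change of 0.34 (adjusted p = 0.00596). In the list 1 gene was higher without PAD4-/- replicate 1 or 2. Of 17 restraining receptors and their phosphatases, 3 were higher and none lower, beside 21.1% and 6.61% of all genes tested. Pilra, an inhibitory receptor gene, rose to 5.56 ± 0.775 FPKM in PAD4-/-, against 3.06 ± 0.154 in WT (SD, n = 4 each; adjusted p = 0.00130), and Inpp5d, which encodes the phosphatase SHIP-1, and Lgals9 reached 1.18 and 1.19 times the WT mean (adjusted p = 0.0108 and 0.0399). Ptpn11, which encodes the phosphatase SHP-2, had a ratio of 1.09 (adjusted p = 0.0618). Cd200r1, the receptor gene for CD200, had 93.9, 88.3, 99.9 and 101 FPKM in the PAD4-/- libraries and 95.1, 95.1, 96.6 and 87.8 FPKM in the WT libraries. Its groups overlapped and its ratio was 1.02 (adjusted p = 0.683), beside a ratio of 0.417 for its ligand gene Cd200. Siglece, an inhibitory sialic acid receptor gene that was too low to be tested, had 0.79, 0.86, 2.12 and 1.58 FPKM in the PAD4-/- libraries and 0.41, 0.21, 0.21 and 0.39 FPKM in the WT libraries, with no overlap. Under median-of-ratios scaling 1 of the 17 was higher and 1 lower, and without PAD4-/- replicates 3 and 4, 2 were higher and 1 lower. Without PAD4-/- replicate 1, 7 were higher and 1 lower. The call of Lgals9 was lost without PAD4-/- replicate 3 or 4 or any 1 WT library (adjusted p = 0.0700 to 0.0976).

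Of 13 antigen presentation genes, 2 were higher and 1 lower, beside 21.1% and 6.61% of all genes tested. March1, the ubiquitin ligase gene whose protein removes CD86 and MHC class II from the surface and is opposed by CD83, rose to 5.28 ± 1.41 FPKM in PAD4-/-, against 3.16 ± 0.297 in WT (SD, n = 4 each; adjusted p = 0.0171). H2-K1, an MHC class I gene, rose to 692 ± 65.5 FPKM, against 546 ± 2.88 in WT (SD, n = 4 each; adjusted p = 0.00612), and belongs to a family of similar genes among which reads can be shared. Ctss, which encodes the protease that trims the MHC class II invariant chain, had a ratio of 0.714 (adjusted p = 0.00108), and Tap1 one of 1.99 (adjusted p = 0.0829). Median-of-ratios scaling gave 2 higher and 2 lower, and the libraries without PAD4-/- replicates 3 and 4 gave 2 higher and 1 lower. Without PAD4-/- replicate 1, 8 were higher and 1 lower.

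Of 6 sheddases, their regulators and sphingosine 1-phosphate receptors, 4 were higher and none lower. Adam15 rose to 196 ± 15.8 FPKM in PAD4-/-, against 142 ± 6.03 in WT (SD, n = 4 each; adjusted p = 0.00173), and Adam17, whose product sheds TNF and many other surface proteins, rose to 146 ± 13.7 FPKM, against 120 ± 3.48 in WT (SD, n = 4 each; adjusted p = 0.0134). Rhbdf2, a regulator of ADAM17, had a log2 fold change of 0.16 (adjusted p = 0.0217). S1pr1, the partner of CD69, had 19.3, 19.1, 17.4 and 16.8 FPKM in PAD4-/- and 14.8, 15.4, 15.0 and 17.3 FPKM in WT. WT replicate 4 lay among the PAD4-/- libraries. The ratio of S1pr1 was 1.16 (adjusted p = 0.0406), and rescaling by the median of ratios moved its adjusted p to 0.240. That scaling left 2 of the 6 higher and 1 lower, and leaving out PAD4-/- replicates 3 and 4 gave 3 higher and none lower. The count was 2 higher without PAD4-/- replicate 3 or WT replicate 1, 2 or 3, and 1 was lower without PAD4-/- replicate 1 or 2. The call of S1pr1 was lost without PAD4-/- replicate 1, 2 or 3 or WT replicate 1, 2 or 3 (adjusted p = 0.0573 to 0.111), and that of Rhbdf2 without PAD4-/- replicate 3 or 4 or WT replicate 1, 2 or 3 (0.0549 to 0.0668). S1pr2, the gene that was lower with median-of-ratios scaling, had 159 ± 8.0 FPKM in PAD4-/- and 177 ± 10.1 in WT (SD, n = 4 each). Its adjusted p was 0.0538 as deposited and 0.0219 with that scaling. The 2 sphingosine 1-phosphate receptor genes tested thus went in opposite directions.

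**Figure D4:**
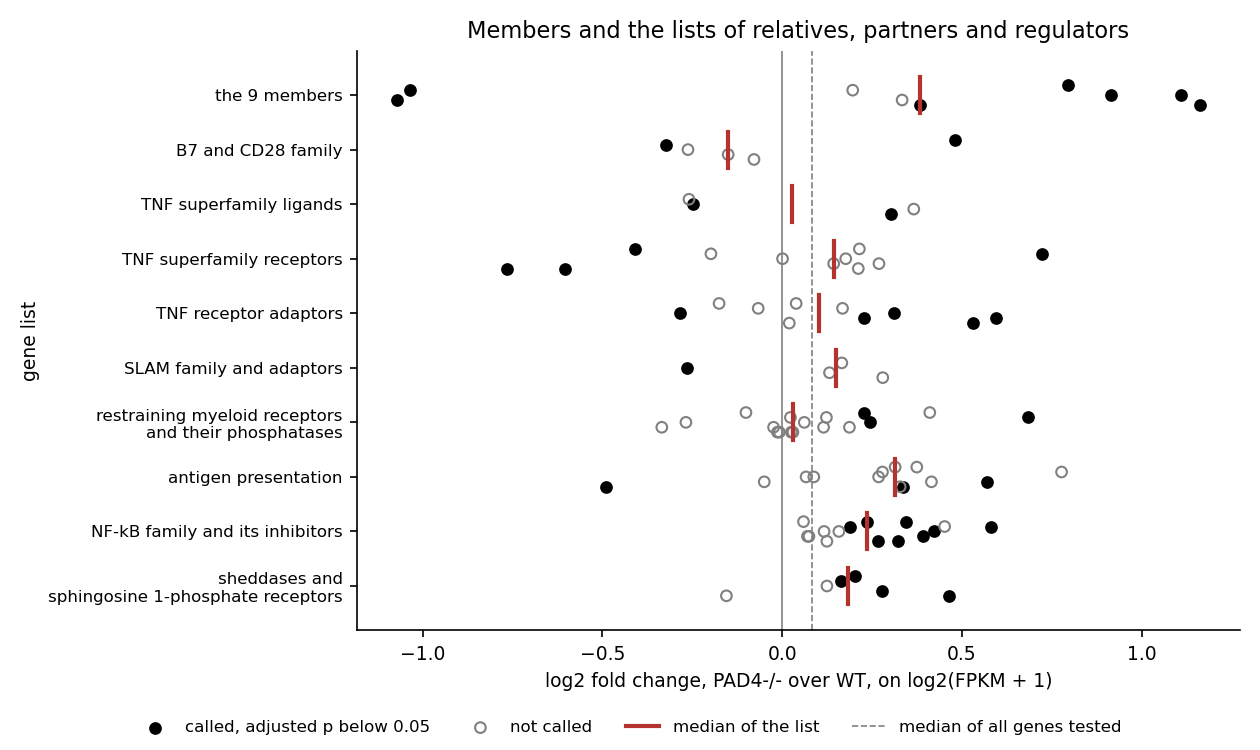
Log2 fold change of PAD4-/- over WT (horizontal axis, on log2(FPKM + 1)) for the 9 members (top row) and the tested genes of the 9 lists. Filled points passed at an adjusted p below 0.05, red bars are list medians and the dashed line is the median of all genes tested, 0.082. The members reach from -1.07 to 1.16, and all 15 NF-kB genes lie to the right of 0, as do 70.6% of all genes tested; with median-of-ratios scaling, not drawn here, 12 of the 15 do.

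The label of the cells was set against markers of macrophages and of other cells that carry the same surface proteins. Of 13 macrophage markers looked up, 9 were in the table, with Csf1r, Adgre1 and Lyz2 among them. They summed to between 20344 and 26544 FPKM in PAD4-/- libraries and between 18811 and 19396 FPKM in WT libraries. Lyz2 alone held 17622 to 23295 FPKM of the sum in PAD4-/- and 16270 to 16830 FPKM in WT. The sum thus says little of the other markers. Of the 9 markers 6 were higher and none lower, beside 21.1% and 6.61% of all genes tested. Ratios were 1.30 for Csf1r, 1.16 for Itgam and 1.15 for Adgre1. With median-of-ratios scaling 2 were higher and none lower. Without PAD4-/- replicates 3 and 4, without either of them or without any 1 WT library, 3 were higher and none lower. The number higher was 7 without PAD4-/- replicate 1, 9 without PAD4-/- replicate 2 and 5 with quantile normalization, with none lower. Cd40, Cd83 and Cd86 are also dendritic cell genes. Of 15 dendritic cell markers looked up, 6 were in the table. Zbtb46, Ccr7, Xcr1, Ccl22 and Fscn1 stayed under 1 FPKM in every library. Ccr7 was listed at 0 in 3 of 4 PAD4-/- and 3 of 4 WT libraries. Irf8, which macrophages also express, had a log2 fold change of 0.16 (adjusted p = 0.0981). The list summed to 25.48 to 30.01 FPKM in PAD4-/- and 23.65 to 26.45 FPKM in WT. Irf8 alone held 23.73 to 28.45 FPKM of that sum in PAD4-/- and 22.3 to 25.04 FPKM in WT. Blnk, the 1 B cell marker in the table and also a macrophage gene, fell to 78.4 ± 10.5 FPKM in PAD4-/-, against 97.2 ± 2.04 in WT (SD, n = 4 each; adjusted p = 0.0211). Its call was lost without PAD4-/- replicate 4 or WT replicate 2, 3 or 4 (adjusted p = 0.0530 to 0.0576). Lcn2, the 1 gene in the table of 13 neutrophil markers looked up, lay between 0.31 and 0.52 FPKM in PAD4-/- and 0.52 and 1.13 FPKM in WT. Col3a1 and Pdgfra, the 2 in the table of 10 fibroblast markers looked up, summed to 0.38 to 0.84 FPKM in PAD4-/- and 0.21 to 0.43 FPKM in WT. Of 16 T and NK cell markers looked up, none could be analysed here. The part of these markers in the members' differences was not tested.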

How the data were processed

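RNA-seq of 4 PAD4-/- and 4 WT libraries was analysed from the deposited table, with groups taken from the sample titles. Per the labels' protocols, total RNA was extracted with Trizol and libraries followed a BGISEQ protocol. The authors deposited FPKM per gene and library, and, per the submitters' processing notes, used HISAT, Bowtie2, RSEM and GRCm38, with versions, settings and strandedness not given in the sources used here. Also in the authors' deposited table are a log2 fold change and a q-value per gene, from a test the labels do not name. RSEM's FPKM give no read depth, so the precision of counting is unknown, and no test on counts was run. The listed genes held 381573 to 403848 FPKM in a library. Since no label names the animal behind a library, the p-values rest on library-to-library spread, which may be technical.

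limma 3.58.1 in R 4.3.3 was run on log2(FPKM + 1) with trend and robust empirical Bayes, two-sided, with Benjamini-Hochberg adjustment over 5674 genes with a mean of at least 1 FPKM; 613 were left out. The procedure was tested on simulated data with independent noise whose spread was taken from the WT libraries for both groups. The simulation held neither the pairs among the PAD4-/- libraries nor their larger spread, so it does not cover these. The members and lists were chosen with earlier results of these data known. Named genes are all members, up to 4 genes per list with the smallest adjusted p, and the 3 nearest genes by pattern, without predicted names. Cd200r1, Cd274, Siglece, Birc3, S1pr2 and the ratios of members were picked after their values were seen. Coordinates are from RefSeq GRCm38.p6, where 6271 of 6287 identifiers matched. In GENCODE vM21 no other gene lay over a member's exons. There were 16 alternatives: pseudocount, filter, scaling, empirical Bayes, replicate block and libraries left out.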

Additional observations from a re-analysis of the deposited data

Results flagged for a closer look

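Within 102 groups of 4 libraries, of the 9 members and of the genes named from the lists, 2 held a library far from the others, and chance flags about 1 group in 20. For Slamf7, WT replicate 4 had 105.71 FPKM, against 120 to 123 FPKM in the other WT libraries. For Itgam, WT replicate 1 had 134.44 FPKM, against 128 to 129 FPKM in the other WT libraries. None of the 9 members had such a library in either group.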

How the results depend on the processing

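Cd200, Slamf8, Cd83 and Tnfsf4 kept direction and call in all 16 alternatives, with log2 fold changes of -1.24 to -0.98, -1.15 to -0.81, 0.56 to 0.90 and 0.58 to 1.04. Leaving out 1 library at a time gave log2 fold changes of 0.97 to 1.36 for Icosl, 0.91 to 1.33 for Cd69 and 0.31 to 0.51 for Cd86, and 2 to 5 members higher, 11 to 42 list genes higher and 5 to 13 lower, and 647 to 1681 genes higher and 235 to 544 lower over all genes tested. Median-of-ratios scaling gave 524 genes higher and 628 lower, groups without overlap for 678 genes higher and 762 lower, 13 list genes higher and 0.31 for Cd86. Quantile normalization gave 488 genes higher, 3 members and 14 list genes higher, 1.02 for Cd69 and 0.27 for Cd86. The replicate block used numbers that do not pair the libraries (deviations of same-numbered libraries correlated at -0.144 to -0.0322). It gave 1031 genes higher and 334 lower over all genes tested, and 2 members higher. Under it Icosl at 1.16 (adjusted p = 0.0711), Cd69 at 1.11 (0.109) and Cd86 at 0.38 (0.0604) were no longer called. Without PAD4-/- replicates 3 and 4, 662 genes and 14 list genes were higher, Cd86 was at 0.19, and uncalled values turned negative: Cd40 -0.13, Cd80 -0.075, Ube2l6 -0.059, Nmi -0.17, Tap2 -0.052, H2-T22 -0.11 and Pnp -0.041. Gbp6, never called, was -0.020 with quantile normalization and -0.041 to 0.20 without single libraries (-0.037 without PAD4-/- replicate 3, -0.041 without replicate 4 and -0.017 without WT replicate 3). The cause was not tested. Of the other 62 named genes, 23 kept direction and call throughout. Read depth is unknown, so how far it limits the low members cannot be given.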
